A study of Mus musculus with 6 samples.

Results

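Interferon-inducible GTPases are proteins that cells make in quantity once interferon has reached them, and 9 of their genes were followed here in osteoclasts from WT and *Slc37a2* KO mice. The genes were taken by symbol from the deposited count table: the guanylate-binding protein (GBP) genes *Gbp2*, *Gbp3*, *Gbp5*, *Gbp7* and *Gbp9*, and the immunity-related GTPase (IRG) genes *Irgm1*, *Irgm2*, *Igtp* and *Iigp1*. All 9 were found among the 22601 genes listed, and all 9 were among the 13483 genes that passed the filter on low counts and were tested. The data are RNAseq read counts of 6 libraries, 3 of each genotype, from mice of 11 weeks. *Slc37a2* encodes a sugar transporter of osteoclast secretory lysosomes, and the mutants carry a global gene-trap allele (tm2a, from targeted embryonic stem cells) on C57BL/6N, with WT littermates as controls. Per the labels, every library came from bone marrow macrophages driven to osteoclasts for 5 days (RANKL at 10 ng/ml, M-CSF at 2 ng/ml). The study's results also describe the RNAseq comparison as one of osteoclasts, whereas its methods describe RNA of whole femurs and tibias from mice of both sexes. All 6 column headings carry the letter F, and no sex was read from it. The labels name no interferon or microbe among the treatments.

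GBPs are large GTPases of the dynamin superfamily that assemble on the membranes of pathogen vacuoles and bacteria and promote inflammasome activation. IRGs are smaller GTPases of the same response: *Iigp1* encodes an effector that coats and breaks the vacuole of *Toxoplasma*, while the IRGM proteins, encoded by *Irgm1*, *Irgm2* and *Igtp*, sit on host membranes and keep the effectors inactive there. Interferon gamma acts on genes through the gamma-activated site (GAS), and type I interferon through the interferon-stimulated response element (ISRE), a site also read by IRF1. Interferon gamma restrains osteoclast formation, and RANKL itself induces some interferon beta in osteoclast precursors.

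The promoters of these genes are described first. Whether their letters bear on the levels of the transcripts over the libraries was not tested. RefSeq windows of GRCm38.p6, from 250 bases before to 50 bases after a start of the gene, were at hand for 7 of the 9 members (not *Gbp9* or *Iigp1*). They were searched on both strands for the ISRE core GAAANNGAAA, and for the GAS letters TTCNNNGAA, which read the same on both strands. All 7 held the ISRE core, against 3.99% of the 27025 genes with such windows and 3.81% of the tested genes that had one. The GAS letters stood in 4 of the 7 (*Gbp5*, *Gbp7*, *Igtp* and *Irgm2*), against 9.55% of all genes with windows. *Gbp3* had a further window at another start, without either match. The stretches below are written 5′ to 3′ along the gene, and capitals mark the ISRE core or, where it reads TTC at its start and GAA at its end, the GAS letters. Their places are chr3:142620594-142620623 (plus strand) for *Gbp2*, chr3:142559989-142560024 (plus) for *Gbp3*, chr3:142530220-142530302 (plus) for *Gbp7*, chr11:48871425-48871460 (minus) for *Irgm1*, chr11:58199501-58199541 (plus) for *Igtp* and chr11:58214892-58214932 (plus) for *Irgm2*.
Gbp2: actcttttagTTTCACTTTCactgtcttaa
Gbp3: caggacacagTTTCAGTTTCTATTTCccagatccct
Gbp7: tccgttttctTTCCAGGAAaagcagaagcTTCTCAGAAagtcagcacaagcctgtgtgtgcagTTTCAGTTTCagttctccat
Irgm1: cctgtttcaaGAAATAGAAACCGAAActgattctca
Igtp: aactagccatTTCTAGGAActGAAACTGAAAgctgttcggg
Irgm2: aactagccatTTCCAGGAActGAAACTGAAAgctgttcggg

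In the 4 GBP promoters the ISRE core lay on the reverse strand, so it reads there as TTTC pairs, and in the 3 IRGM promoters it lay on the forward strand. *Gbp3* and *Irgm1* each held a pair of overlapping matches. Measured from the start that each window uses, which for *Gbp3* lies inside the gene span given below, the core (the farther match where a gene has a pair) began 59 bases before the start in *Gbp2*, 45 in *Gbp3*, 53 in *Gbp7*, 30 in *Irgm1*, 34 in *Igtp* and 64 in *Irgm2*, and farther out, 165 bases before it, in *Gbp5*. The stretches of *Igtp* and *Irgm2*, neighbouring genes on the same strand, were identical at 40 of 41 bases. The difference was T14C, counted from 1 at the 5′ end with the *Igtp* base first, and it falls on an unspecified letter of the GAS match. Over the whole windows, 244 of 265 aligned bases of the pair (92.1%) were identical. Outside the members, the core stood in 5 of 7 other GBP and IRG genes with a window and in 8 of 12 type I interferon-stimulated genes. It also stood in 3 of 9 interferon gamma-induced genes outside the GTPases, in 1 of 7 genes of interferon gamma signalling and in 1 of 8 osteoclast genes. These matches are letters in a window, and no binding was measured.

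**Figure D1:**
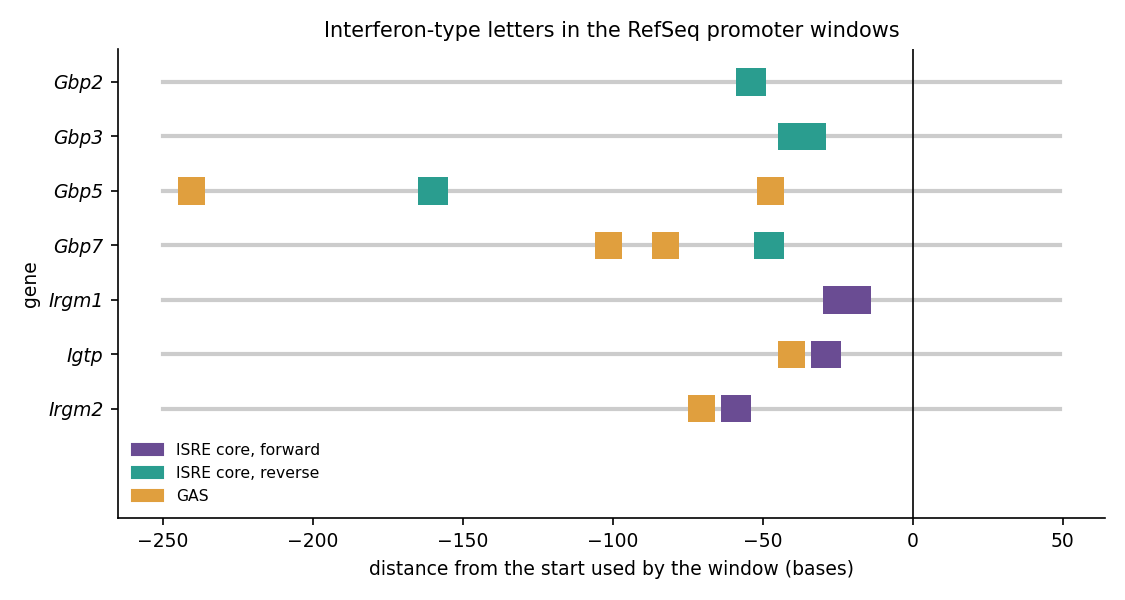
Positions of the ISRE core (purple on the forward strand, green on the reverse strand) and the GAS letters (orange) in the RefSeq windows of 7 GTPase genes, against distance in bases from the start that the window uses (vertical line at 0). In 6 of the 7 genes the farthest ISRE core starts 30 to 64 bases before it, and in *Gbp5* 165 bases before it.

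The genes lie in a few clusters of near relatives, which bears on how far their reads can be told apart. On GRCm38.p6, *Gbp5* (chr3:142496934-142522344), *Gbp7* (chr3:142530336-142550151), *Gbp3* (chr3:142560016-142573213) and *Gbp2* (chr3:142620663-142638008) follow one another on the plus strand of chromosome 3. *Gbp9* (chr5:105076464-105110357, minus strand) overlaps *Gbp4* and *Gbp8* in the GENCODE annotation. *Irgm1* (chr11:48865245-48871420, minus strand) stands apart from *Igtp* (chr11:58199556-58207592) and *Irgm2* (chr11:58214977-58222783), whose GENCODE spans overlap on the plus strand. *Iigp1* is on chromosome 18. *Gbp3* and *Gbp7* were identical at 80.0% of aligned coding bases, *Igtp* and *Irgm2* at 78.4%, *Gbp2* and *Gbp5* at 74.7%, and *Gbp9* and *Gbp4* at 91.1%. Of all 100-base windows of the annotated transcripts, 10.0% of those of *Gbp7* recurred exactly in another gene, mostly in the processed pseudogene *Gm43802*. The share was 5.16% for *Igtp* and 3.01% for *Irgm2* (each with the other), 2.01% for *Gbp9*, 0.708% for *Gbp3*, and 0 for *Gbp2*, *Gbp5*, *Irgm1* and *Iigp1*. How the authors' counting treated shared reads is not given in the sources used here, so the split between *Igtp* and *Irgm2*, and the level of *Gbp7*, carry that uncertainty.

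The libraries are named by the animal number in their heading: K090, L080 and L082 were WT, and K089, L078 and L081 were *Slc37a2* KO. Their totals were 39250356, 27552183 and 31396766 counts in WT and 29279260, 42522292 and 29663713 counts in KO. The knocked-out gene was checked first: *Slc37a2* had 75789, 60889 and 76013 counts in WT and 1233, 1446 and 1043 counts in KO. Osteoclast transcripts were abundant. The gelatinase gene *Mmp9* was at 17157 to 32320 CPM (counts scaled to library size, here after TMM normalization). The collagenase gene *Ctsk*, cathepsin K, was at 7905 to 18994 CPM. Markers of neutrophils, T cells and B cells were scarce, at most 0.833 CPM for *S100a8*, 4.26 CPM for *Trac* and 1.87 CPM for *Ighm*. Macrophage markers were not all scarce, and they are taken up below with the GTPase profile. *Adgre1* ran from 64.4 to 312 CPM and *Mrc1* from 14.3 to 96.2 CPM. *Col1a1*, a collagen gene of stromal cells and osteoblasts, was at 295 to 862 CPM, and the osteoblast genes *Runx2*, *Alpl* and *Sp7* were at 10.6 to 16.5, 2.62 to 7.48 and 1.48 to 2.70 CPM, while *Bglap* was at 0 in 4 libraries and at 0.0354 CPM or less in the others.

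All 9 GTPase genes were transcribed in these cells at low to moderate level. Per kilobase of the principal GENCODE transcript, *Irgm1* had the highest mean level over the 6 libraries (12.8 CPM per kb), followed by *Gbp7* (6.53), *Gbp3* (3.09), *Irgm2* (3.02), *Gbp9* (2.63), *Igtp* (2.56), *Gbp2* (1.79), *Gbp5* (0.811) and *Iigp1* (0.280). *Irgm1* stood at 14.7 ± 5.10 CPM per kb in WT and 10.9 ± 4.44 in KO (SD, n = 3 each), and *Gbp7* at 7.34 ± 1.27 and 5.73 ± 1.04. The levels of *Gbp3*, *Irgm2*, *Gbp9* and *Igtp* differed from one another by less than their spread, for example 3.66 ± 1.22 CPM per kb for *Gbp3* and 3.07 ± 1.78 for *Igtp* in WT. Counted per kilobase of all annotated exons instead, *Gbp7* (6.53) came before *Irgm1* (4.99), so the order of the leading pair depends on the transcript assumed. *Iigp1*, the effector IRG, was the least abundant in every library.

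Library K090 (WT) was the highest and K089 (KO) the lowest for each of the 9 genes, and the other 4 libraries lay between them irrespective of genotype. *Irgm1*, the IRGM gene whose product acts on lysosomes and mitochondria, was at 44.4, 34.2 and 21.4 CPM in WT libraries K090, L080 and L082, and at 17.0, 36.0 and 20.998 CPM in KO libraries K089, L078 and L081. *Irgm2*, whose product sits on the Golgi, was at 20.3, 13.4 and 4.75 CPM in WT and 3.52, 14.0 and 6.86 CPM in KO. *Igtp*, which encodes Irgm3 of the endoplasmic reticulum and lipid droplets, was at 9.73, 6.36 and 2.54 CPM in WT and 2.06, 7.70 and 2.65 CPM in KO. For all 3 IRGM genes, KO library L078 was above WT libraries L080 and L082, and the genotypes overlapped. *Iigp1* was at 2.43, 0.565 and 0.289 CPM in WT and 0.183, 1.40 and 0.389 CPM in KO, and its lowest level rests on 5 counts against 99 in K090.

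The GBP genes had the same highest and lowest libraries. *Gbp2*, which encodes a prenylated GBP that reaches vacuoles and bacteria, was at 8.31, 4.81 and 3.50 CPM in WT (K090, L080, L082) and 1.21, 6.10 and 3.11 CPM in KO (K089, L078, L081). *Gbp5*, whose prenylated product is tied to inflammasome activation, was at 4.41, 2.26 and 1.83 CPM in WT and 1.28, 3.06 and 2.01 CPM in KO. In both genes, L078 was the second highest library and the genotypes overlapped. *Gbp3* was at 13.6, 8.27 and 7.61 CPM in WT and 3.63, 10.1 and 6.50 CPM in KO. *Gbp9* was at 21.05, 12.7 and 6.32 CPM in WT and 5.17, 15.6 and 8.27 CPM in KO. *Gbp7*, linked to assembly of the phagocyte NADPH oxidase, was the steadiest member, at 47.4, 42.8 and 33.4 CPM in WT and 27.2, 38.5 and 30.7 CPM in KO. It was also the one member with L080 above L078.

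**Figure D2:**
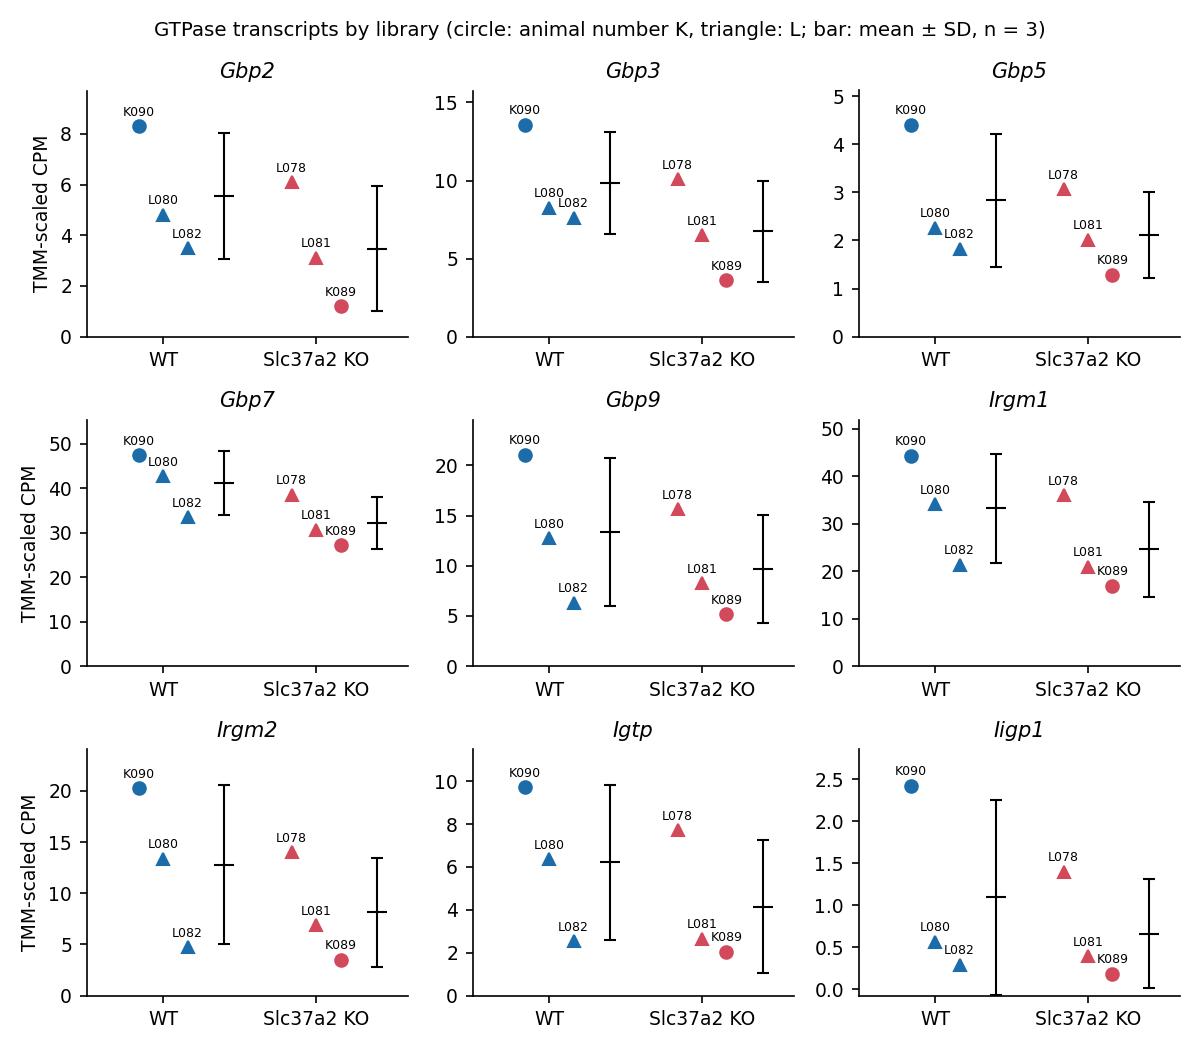
TMM-scaled CPM of the 9 GTPase genes in each library (blue WT, red *Slc37a2* KO, circles for animal numbers that begin with K and triangles for L), with the mean ± SD of the 3 libraries of each genotype as black bars. In every panel K090 is the highest and K089 the lowest library, and the genotypes overlap.

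The spread between libraries was large for these genes. Over the 6 libraries, the SD of log2 CPM (with a prior count of 2) was 1.28 for *Iigp1*, 0.98 for *Irgm2*, 0.95 for *Igtp*, 0.95 for *Gbp2*, 0.78 for *Gbp9*, 0.64 for *Gbp3*, 0.60 for *Gbp5*, 0.54 for *Irgm1* and 0.30 for *Gbp7*. The median of all tested genes was 0.16 and their 95th percentile 0.78. The members thus stood between the 70.9th percentile (*Gbp7*) and the 99.5th (*Iigp1*) of tested genes. On this scale, where the prior count draws low levels together, the highest library exceeded the lowest 10.2-fold for *Iigp1*, 6.58-fold for *Gbp2*, 5.67-fold for *Irgm2* and 1.74-fold for *Gbp7*. It was as large within a genotype, where the median SD of the 9 genes was 0.83, as over all 6 libraries, where it was 0.78.

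The common profile was summarised as the median, over the 9 genes, of log2 CPM relative to each gene's own mean. It was 1.04 in K090, 0.61 in L078, 0.31 in L080, −0.30 in L081, −0.35 in L082 and −1.06 in K089, a span of 2.10 against a pooled SD of 0.77 within genotypes. L081 and L082 were nearly level, and their order turned without TMM scaling and with K089 left out. Summed over the 9 genes, the level was 172, 125 and 81.7 CPM in WT (K090, L080, L082) and 61.3, 133 and 81.5 CPM in KO (K089, L078, L081). All 9 members had K090, L078 and L080 as their top 3 libraries and K089 as the lowest, an arrangement found in 12.0% of all tested genes. K090 and L078 were also the deepest libraries, whereas L080, with the third highest profile, was the shallowest. *Gbp9* lay closest to the profile of the other 8 members, at a root mean square distance of 0.153 on the log2 scale, and *Gbp7* (0.475) and *Iigp1* (0.579) lay farthest from it, *Gbp7* with a smaller and *Iigp1* with a larger swing.

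Against this spread, the genotypes could not be told apart for any member. All 9 estimates were lower in KO, with a median log2 fold change of −0.54 (all tested genes, −0.02, with 56.2% lower in KO), and 0 of the 9 passed the thresholds. These were a log2 fold change beyond 1.5 in either direction and a p below 0.05 in edgeR's quasi-likelihood test after Benjamini-Hochberg (BH) adjustment, and 0.00742% of tested genes (1 gene, *Slc37a2*) passed them. None of the 9 reached an unadjusted p below 0.05 in this test, in DESeq2's Wald test or in edgeR's likelihood ratio test, a level reached by 0.712% of tested genes in the quasi-likelihood test. In 0 of the 9 did every KO library lie below every WT library, against 2.81% of tested genes. In bulk libraries, fewer cells that express a gene and less RNA per cell cannot be told apart. Whether each library is a separate culture of a separate animal is given by the animal numbers alone, so p-values measure the spread between these 6 libraries.

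*Gbp7* had the tightest estimate, from 41.2 ± 7.11 CPM in WT to 32.1 ± 5.82 in KO (SD, n = 3 each), a log2 fold change of −0.36 with a standard error of 0.17 and a 95% interval of −0.78 to 0.06. Its BH-adjusted p from edgeR was 0.969, a value that all 9 members shared. *Gbp2* stood at 5.54 ± 2.49 CPM in WT and 3.47 ± 2.47 in KO, a log2 fold change of −0.66 (interval −2.09 to 0.77). *Gbp3*, at 9.82 ± 3.27 and 6.74 ± 3.23 CPM, differed by −0.54 (−1.51 to 0.44). The intervals of *Gbp3*, *Gbp7* and *Irgm1* (−1.30 to 0.44, estimate −0.43) were the narrowest, and all 9 intervals took in 0. *Irgm2* stood at 12.8 ± 7.77 and 8.13 ± 5.35 CPM (log2 fold change −0.65, standard error 0.65), *Igtp* at 6.21 ± 3.60 and 4.14 ± 3.10 CPM (−0.57, 0.65), and *Gbp9* at 13.4 ± 7.38 and 9.69 ± 5.37 CPM (−0.46, 0.54). *Gbp5* differed by −0.41 (standard error 0.45), and *Iigp1* by −0.70 (standard error 0.96), with an interval from −3.03 to 1.63. An exact permutation test of log2 CPM, two-sided, gave p values from 0.2 (*Gbp7*) to 0.6 (*Gbp9* and *Iigp1*), where 3 libraries against 3 cannot go below 0.1.

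Without the pair of libraries whose animal number begins with K, the estimates of 8 of the 9 genes turned from lower to higher in KO. This split was chosen after seeing the data. It leaves out the highest WT library (K090) and the lowest KO library (K089) of every member. A shift of the estimates towards or past 0 thus came with the choice. The same split is given for other gene lists below. In K089 (KO) against K090 (WT), 1 library against 1, with no replicate check, CPM without a prior count was 13.2-fold lower for *Iigp1*, 6.86-fold for *Gbp2*, 5.75-fold for *Irgm2*, 4.73-fold for *Igtp*, 4.07-fold for *Gbp9*, 3.74-fold for *Gbp3*, 3.43-fold for *Gbp5*, 2.61-fold for *Irgm1* and 1.74-fold for *Gbp7*. Among the 4 libraries that begin with L, 2 of each genotype, 1 of the 9 genes was lower in KO (*Gbp7*, −0.14) and 8 were higher, with a median log2 fold change of 0.21. *Gbp2* then stood at 0.16, *Irgm2* at 0.21, *Igtp* at 0.23, *Gbp9* at 0.33 and *Iigp1* at 1.10, with a BH-adjusted p from edgeR of 1.00 for each. Of all genes tested in these 4 libraries, 53.1% were lower in KO, with a median of −0.01. The L libraries thus placed 8 of the 9 members above 0 and the K pair placed all 9 below it. The former passed no test and the latter had none. Over all genes, K089 and K090 were also the most unlike pair of libraries. Their chi-square per degree of freedom was 116, against 6.72 for K089 and L081. A large difference in this pair is thus not in itself a trait of the GTPases. What the letter stands for is not given in the sources used here. With the letter as a second term over all 6 libraries, the median was −0.42, all 9 estimates were lower in KO and their BH-adjusted p from edgeR was 0.996. *Iigp1* then stood at −0.28, against −0.70 without the term.

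**Figure D3:**
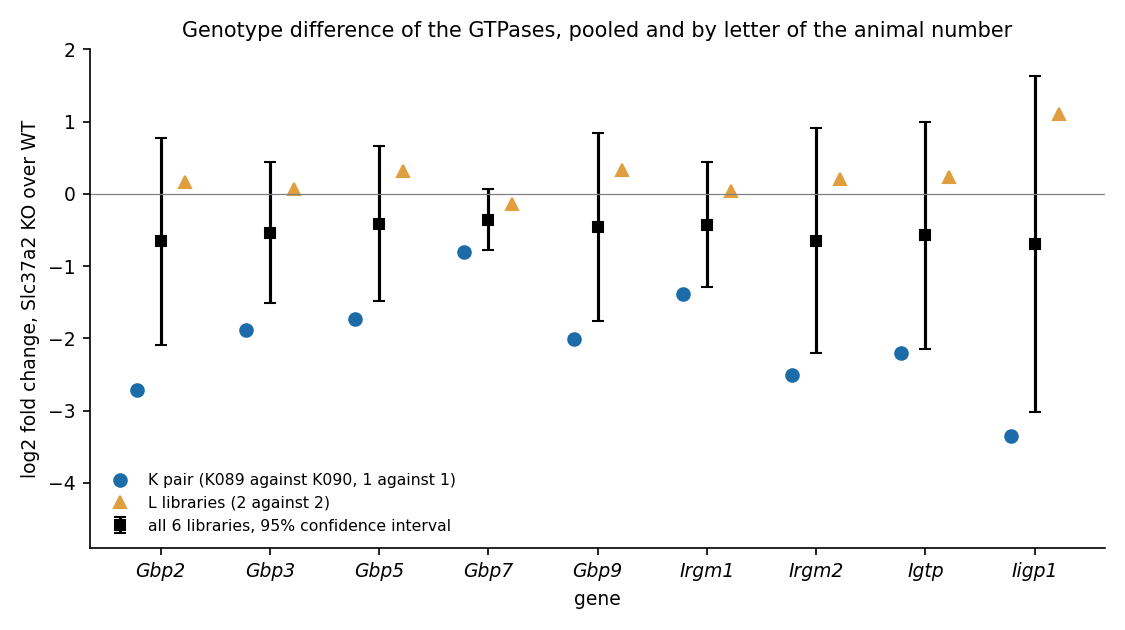
Log2 fold change of the 9 GTPase genes, *Slc37a2* KO over WT: squares with 95% confidence intervals from all 6 libraries, blue circles from K089 against K090 alone, and orange triangles from the 4 L libraries. The squares lie between −0.70 and −0.36 with intervals that cross 0, all circles lie below them, and 8 of the 9 triangles lie above 0. The split by letter was chosen after seeing the data.

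Single libraries moved the genotype estimate in opposite directions. Without KO library L078, the median log2 fold change of the 9 genes became −0.99, and 5 of them had an unadjusted p below 0.05. Without WT library K090 it became −0.15, with 6 of the 9 lower in KO. Without KO library K089 it became −0.23, with all 9 lower in KO. The adjusted p of the members ran from 0.227 to 1.00 over the 6 such repeats (edgeR, BH-adjusted), so none was called in any of them.

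Related GTPase genes often shared the library pattern: 8 of the 9 tested had the members' top 3 libraries, and 6 were highest in K090. Of 16 further GBP and IRG genes, 13 were listed and 9 were tested, of which 8 were lower and 1 was higher in KO, 0 were called, and the median log2 fold change was −0.57. In the 4 L libraries 1 was lower and 8 were higher (median 0.56). *Gbp6*, *Gm4951* and *Tgtp2*, which encode GTPases of the same families, were counted 77, 143 and 56 times in K090 and 0, 1 and 1 times in K089, but also 51, 87 and 64 times in KO library L078. Of the windows of *Gbp6* and *Tgtp2*, 82.9% and 80.4% recur in other genes, so these counts are uncertain. *Gbp4* was even between genotypes, at 2.56 ± 1.10 CPM in WT and 2.67 ± 1.54 in KO (SD, n = 3 each, log2 fold change 0.07). *Irgq*, an IRG relative outside the interferon response, was flat, at 39.5, 43.0 and 49.2 CPM in WT and 45.2, 38.1 and 44.3 CPM in KO. Of other genes of the dynamin superfamily, 10 of 10 on the list were tested, 3 lower and 7 higher with 0 called and a median of 0.04. Their median profile spanned 0.06 on the log2 scale, although single genes varied more, such as *Mfn2*, a mitochondrial fusion gene, from 173 to 241 CPM, and 3 of the 10 had the GTPases' top 3 libraries.

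Upstream, the receptors and signal carriers of interferon gamma had a median profile in the same library order but with a span of 0.40, and not every gene followed it: 5 of the 8 tested had the GTPases' top 3 libraries. Of 9 genes on the list, 8 were listed in the count table and tested (*Ifng* was not among the genes listed there). In KO 6 were lower and 2 higher, with 0 called and a median of −0.10. The L libraries gave 2 lower and 6 higher (median 0.11). *Irf1*, which binds the ISRE and is itself an early interferon gamma target, was at 54.0, 46.0 and 32.1 CPM in WT (K090, L080, L082) and 30.3, 43.9 and 34.5 CPM in KO (K089, L078, L081). It was thus highest in K090 and lowest in K089, as the GTPases were. *Ifngr2*, a receptor subunit gene, was ordered otherwise, at 197, 195 and 199.6 CPM in WT and 225, 189 and 232 CPM in KO. *Ptpn2*, a phosphatase gene of the pathway, was at 32.1, 32.4 and 32.3 CPM in WT and 31.3, 30.1 and 28.1 CPM in KO. Every KO library of *Ptpn2* lay below every WT library, by a small margin (log2 fold change −0.11), and it was not called.

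The type I interferon-stimulated genes swung more widely than the GTPases, and the type I signalling genes less widely. All 15 type I interferon-stimulated genes were tested, and all 15 had the GTPases' top 3 libraries, an arrangement of 22.6% of tested genes, with K090 the highest in each. Their median profile was 1.69, 0.62 and −0.996 in WT and −1.43, 0.92 and −0.49 in KO, a span of 3.11. *Oas3*, an antiviral oligoadenylate synthetase, ran from 55.1 CPM in K090 to 3.85 CPM in K089, with 31.4 CPM in L080 and 31.8 CPM in L078. In the genotype comparison, 15 of 15 were lower in KO (median −0.78) with 0 called, and in the 4 L libraries 15 of 15 were higher (median 0.31). Of the type I signalling genes, 8 of 9 were tested, 8 lower with 0 called and a median of −0.25, and their profile spanned 0.92. In the L libraries 1 was lower and 7 were higher (median 0.07). Within them *Irf7*, an interferon-induced regulator, ran from 25.0 CPM in K090 to 1.65 CPM in K089, while *Irf3*, its constitutive relative, stayed between 41.5 and 47.1 CPM. *Ifnb1*, the interferon beta gene itself, had 2 counts over all 6 libraries.

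Genes induced by interferon gamma outside the GTPases had a narrower range. Of 14, 13 were tested, 11 lower and 2 higher in KO with 0 called and a median of −0.26, and the span of their profile was 1.26. The L libraries gave 1 lower and 12 higher (median 0.26). *Cxcl10*, a chemokine gene, ran from 12.8 CPM in K090 to 2.09 CPM in L082, and *Psmb8*, a subunit of the immunoproteasome, from 105 CPM in K090 to 49.5 CPM in K089. Of the inflammasome and cell death genes that GBPs act with, 8 of 9 were tested, 7 lower and 1 higher with 0 called and a median of −0.22, against 1 lower and 7 higher in the L libraries (median 0.06). The GTPases' top 3 libraries were those of 7 of these 8, and the span of the profile was 0.83. *Nlrp3*, an inflammasome sensor gene, was at 10.6, 11.8 and 5.07 CPM in WT (K090, L080, L082) and 4.55, 12.5 and 6.47 CPM in KO (K089, L078, L081). *Casp4*, the sensor of cytosolic lipopolysaccharide and the one gene with a higher estimate in KO, was at 26.5 ± 2.77 CPM in WT and 27.0 ± 1.16 in KO (SD, n = 3 each). The machinery that loads GTPases onto membranes did not share the profile: 14 of 14 lipidation genes were tested, 4 lower and 10 higher with 0 called (median 0.09), and 1 of the 14, the ubiquitin ligase gene *Trim21*, had the GTPases' top 3 libraries. All 6 genes of protein prenylation, which GBP2 and GBP5 need for membrane binding, were tested, 2 lower and 4 higher with 0 called, a median of 0.01 and a span of 0.08.

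**Figure D4:**
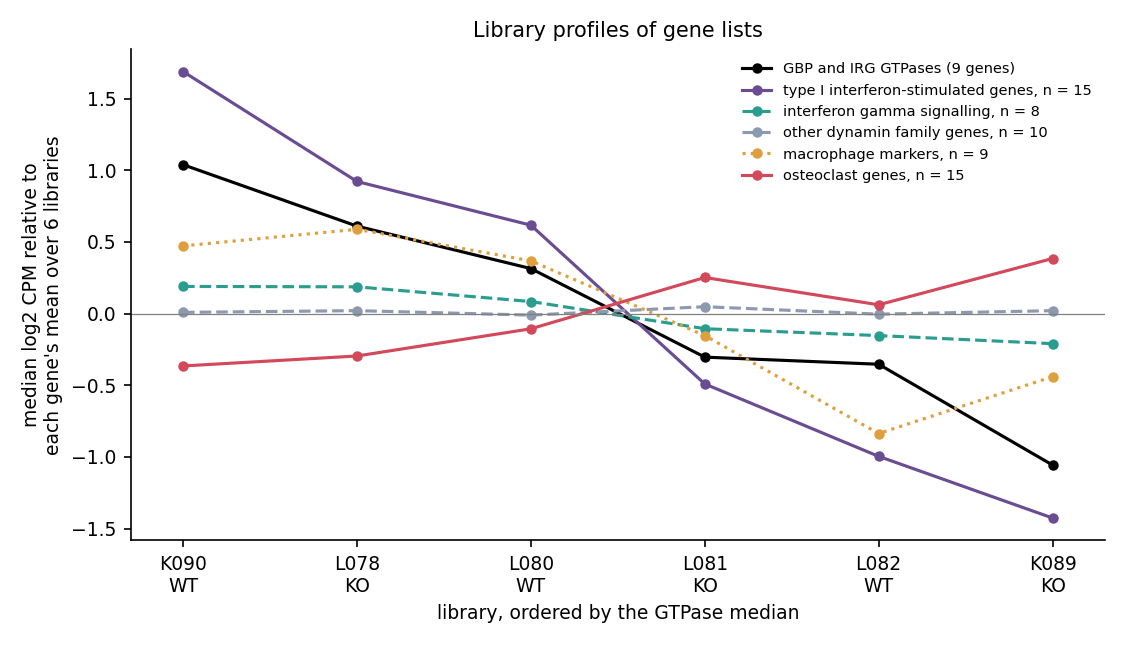
Median log2 CPM relative to each gene's own mean (vertical axis) for 6 gene lists across the 6 libraries, ordered by the GTPase median. The GTPases (black) fall from 1.04 in K090 to −1.06 in K089, type I interferon-stimulated genes (purple) fall further, the median of dynamin family genes (grey) stays near 0, and osteoclast genes (red) run the other way.

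Markers of the cells in the culture also differed between libraries, some along the GTPase profile and some against it. Their part in that profile was not tested. The 15 osteoclast genes, summed, were at 41867, 54701 and 62344 CPM in WT (K090, L080, L082) and 81372, 45425 and 72742 CPM in KO (K089, L078, L081). This placed K089 highest and K090 lowest, the reverse of the GTPases, and the most abundant of them was *Mmp9*. All 15 were higher in KO (median log2 fold change 0.27) with 0 called, and 5 lower against 10 higher in the 4 L libraries (median 0.03). Of 9 macrophage markers, 7 had the GTPases' top 3 libraries. Their median profile was highest in L078 (0.59) and lowest in L082 (−0.84), not in K090 and K089. *Adgre1*, which encodes the macrophage marker F4/80, was at 312, 272 and 80.0 CPM in WT and 64.4, 262 and 95.8 CPM in KO, and *Mrc1*, the mannose receptor gene, was at 96.2, 81.3 and 22.5 CPM in WT and 14.3, 87.8 and 19.1 CPM in KO. The summed level of the 9 markers, led by *Csf1r* (mean 1881 CPM), was steadier, from 4077 CPM in L078 to 4730 CPM in K089, because *Csf1r* and *Cd68*, which osteoclasts also express, were highest in K089. Across the list, 6 were lower and 3 higher in KO (median −0.28) with 0 called, and in the L libraries 1 was lower and 8 were higher (median 0.05).

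Markers of other cell types were less abundant than those of osteoclasts. T cell markers summed to 3.92 to 6.26 CPM and NK cell markers to 0.0734 to 0.289 CPM, with 3 of 8 listed in each. *Ifng* was not among the 22601 genes listed in the count table, none of which was without counts. Whether it was left out for lack of counts is not given in the sources used here. A local source of interferon gamma was therefore not assessed. B cell markers summed to 0.697 to 2.12 CPM, neutrophil markers to 0.330 to 1.25 CPM, and endothelial markers, led by *Eng*, to 9.79 to 20.9 CPM. The 3 endothelial markers tested had the GTPases' top 3 libraries, and their part in the result was not tested. Dendritic cell markers, led by *Itgax*, which osteoclasts also express, summed to 21.9 to 31.8 CPM, with *Xcr1* at 0 in 4 libraries. Stromal and osteoblast markers, led by *Col1a1*, were at 886, 1331 and 1706 CPM in WT and 768, 1943 and 697 CPM in KO. Their order, with L078 and L082 highest, was not that of the GTPases.

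The genes whose library profile came nearest to the GTPase median were drawn from 11850 tested genes outside the members with a mean of at least 1 CPM. Nearness was the root mean square distance between profiles over the 6 libraries, with a median of 0.70 for all these genes. The nearest were *Ifih1* (0.126), the cytosolic RNA sensor MDA5, and *Tlr3* (0.129), the endosomal sensor of double-stranded RNA. They were followed by *Epsti1* (0.136), *Slc7a2* (0.138), an arginine transporter gene, *Trim30a* (0.145), *Abca1* (0.146), the cholesterol exporter gene, *Mndal* (0.151), *Siglece* (0.152), *Fcgr4* (0.152), an Fc receptor gene, and *Cxcr4* (0.154), a chemokine receptor gene. *Ifih1* was at 24.0, 15.2 and 7.48 CPM in WT (K090, L080, L082) and 5.76, 17.0 and 8.59 CPM in KO (K089, L078, L081), with K090 highest and K089 lowest. Taking the mean of the members in place of their median kept 7 of these 10 genes. Since the genes were chosen by this profile, that order and their direction, lower in KO by estimates from −0.64 (*Fcgr4*) to −0.35 (*Siglece*), came with the choice, and the BH-adjusted p from edgeR was 0.969 for each.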

How the data were processed

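RNA of 3 WT and 3 *Slc37a2* KO samples was sequenced on an Illumina NovaSeq. The submitters' processing notes name bcl2fastq 2.20.0.422, edgeR 3.30.3 and the build mm10. The aligner, the counter, its annotation and its use of strand were not given in the sources used here. Whole-number read counts per gene and library, not normalized, were deposited by the authors beside the columns of their edgeR comparison (log2 fold change, mean log2 CPM, likelihood ratio, p-value and FDR), which were not used. A further list of the first 1000 genes was not used. Columns were assigned to genotypes by their headings, 0 columns belonged to other samples, and no replicate number is given there.

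In R 4.3.3, edgeR 4.0.16 was run on these counts with filterByExpr defaults, TMM factors (0.931 to 1.06), glmQLFit, glmQLFTest on genotype alone, and Benjamini-Hochberg adjustment over 13483 genes, with limma 3.58.1 and DESeq2 1.42.0 beside it. The biological coefficient of variation was 20.8%, with 2.35 prior degrees of freedom. The fit was tested on simulated counts. These had the same dispersion for every gene and no library pattern shared between genes. They therefore do not show how the fit treats genes as variable as the members. No library was a duplicate: the chi-square per degree of freedom was at least 6.72 (K089 and L081). Totals of 27552183 to 42522292 counts make a count of 0 allow up to 0.0706 to 0.109 CPM (3 counts, counting error only).

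The members and all lists were chosen with earlier results of these data known. Named genes were the 9 members, *Slc37a2*, genes of the lists, genes past both thresholds, and the 10 genes nearest in library profile. Gene positions and promoter windows are from RefSeq (GRCm38.p6, the same assembly as mm10), and transcript lengths and shared windows from GENCODE M21. Protein features were planned and were not analysed here. A gene of the interferon gamma list is counted with it but not reported by name here. Alternatives were DESeq2's size factors, upper quartile scaling, no filter, at least 1 CPM in 3 libraries, the likelihood ratio test, DESeq2's Wald test, robust dispersion, the heading's letter as a term, each library left out, CPM without TMM scaling, a prior count of 0.5, the mean profile, and other motif rules.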

Additional observations from a re-analysis of the deposited data

How the results depend on the processing

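With 3 libraries per genotype and a median SD of 0.83 within genotypes, the 95% intervals of 8 of the 9 members reached below −1. No paired analysis was possible because the column headings carry no replicate number. The letter of the heading, which both genotypes share, was fitted as a second term instead and changed no call (GTPase median −0.42). Under 7 other scalings, filters and tests, 0 GTPases were called and their median log2 fold change stayed between −0.55 and −0.50. The filter of at least 1 CPM in 3 libraries left 8 members, without *Iigp1*, and gave the −0.50. The number of genes called, at any fold change or over 1.5, was 2 (*Slc37a2* and *En2*) with no filter, with the likelihood ratio test and with DESeq2's Wald test. With each library left out, genes called were 1 to 1, GTPases called 0 to 0, GTPases lower in KO 6 to 9, and their median −0.99 to −0.15. Without WT library K090 the estimates of *Gbp5* (0.064, from −0.79 without L078), *Gbp9* (0.033, from −0.99) and *Iigp1* (0.69, from −1.96) turned positive. The comparison within the 4 L libraries was chosen after seeing the data. In it GTPases lower in KO were 1, and the estimates of *Gbp2* (0.16), *Gbp3* (0.066), *Gbp5* (0.32), *Gbp9* (0.33), *Irgm1* (0.041), *Irgm2* (0.21), *Igtp* (0.23) and *Iigp1* (1.10) turned positive. The cause was not tested. The span of the GTPase profile ran from 1.29 (without K089) to 2.09 with a library left out, and was 2.25 without TMM scaling and 2.11 with a prior count of 0.5. Searched on the forward strand alone, the ISRE core stood in 3 of the 7 promoters.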
